A study of Mus musculus with 6 samples.

Results

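The cells described here are the cycling epithelial cells of MMTV-PyMT breast tumors, 450 of the 11802 tumor cells that passed an epithelial gate, of 24527 tumor cells and of 58561 cells in the series. They were chosen by UMI counts, each UMI (unique molecular identifier) standing for a captured RNA molecule. A cell had to hold at least 200 genes and at most 25% of its UMIs from mitochondrially encoded genes, at least 2 UMIs of Epcam, the epithelial adhesion molecule, and 0 of both Ptprc (the leukocyte antigen CD45) and Pecam1 (the endothelial antigen CD31). Of these gated cells, members were selected on 4 proliferation genes, Mki67, Top2a, Birc5 and Ube2c, with at least 5 UMIs over the 4 and at least 2 over Mki67 and Top2a. No upper limit on genes was set. The levels of these 4 genes in members are therefore given by the choice and are no finding.

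The study compared a microfluidic tissue dissociation platform with conventional digestion in kidney and breast tumor. Tumors came from female MMTV-PyMT mice of 10 weeks, in which the mouse mammary tumor virus promoter drives the polyoma middle T oncogene in mammary epithelium. Minced tumor was digested with type I collagenase either conventionally for 60 min (control) or in the platform, from which cells were collected at 15 min and at 60 min, and SytoxBlue-negative cells were sorted and sequenced on the 10x Chromium system. There was 1 library per condition and no labelled replicate, so all values below describe 3 libraries, and no test between conditions was possible. Members numbered 176 in control, 138 in platform 15 min and 136 in platform 60 min, the order in which values of the 3 libraries are given throughout.

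A dividing cell copies its DNA in S phase, condenses and separates the chromosomes in mitosis (M phase) and passes through the gaps G1 and G2 between. E2F transcription factors switch on genes for nucleotide supply and replication around the start of S phase, and the MuvB complex with B-Myb and FoxM1 later switches on genes for the spindle, the kinetochore and mitotic exit. RNAs of the latter kind are near absent from resting cells, which is why Mki67, Top2a, Birc5 and Ube2c serve as proliferation markers in breast tumors.

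The tumor libraries held between 90414805 and 101222030 UMIs over all deposited cells. Any 2 tumor libraries shared 16 to 21 cell barcodes and no pair shared a member, although 3 members carried a barcode that also occurred in another tumor library. Scrublet, which scores likely doublets, marked 0 members in each library, against 0.211% to 0.510% of the other gated cells and 1.12% to 2.17% of all cells with at least 200 genes. The 0 allows up to 2.07%, 2.64% and 2.68% of members, which includes the rates of the other gated cells. The median score was higher in members, at 0.0563, 0.0600 and 0.0438 against 0.0450, 0.0495 and 0.0378. Intervals below are 95% intervals and cover counting error only.

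The members separated widely from the rest on the 4 genes, as the choice required. Mki67 encodes a protein that coats mitotic chromosomes, and the median member held 4, 7 and 4 UMIs of it. Top2a, the DNA topoisomerase that untangles replicated chromosomes, had medians of 5, 6 and 5 UMIs. Birc5 (survivin), a subunit of the chromosomal passenger complex, had medians of 9, 17 and 13 UMIs, and Ube2c, the ubiquitin-conjugating enzyme of the anaphase-promoting complex, 4, 6 and 4 UMIs. On GRCm38 in the GENCODE M21 annotation these protein-coding genes lie at chr7:135689784-135716361 on the minus strand (Mki67, ENSMUSG00000031004), chr11:98992943-99024189 on the minus strand (Top2a, ENSMUSG00000020914), chr11:117849251-117855743 on the plus strand (Birc5, ENSMUSG00000017716) and chr2:164769898-164778822 on the plus strand (Ube2c, ENSMUSG00000001403). The median gated cell outside the members had 0 UMIs of each gene in every library, and between 2.29% (Mki67, platform 60 min) and 6.10% (Ube2c, control) of those cells held a UMI. Just inside the limit, 41 members had a sum of 5 or 6 over the 4 genes. Just outside it, 130 cells had a sum of 3 or 4, and 77 reached the sum but held fewer than 2 UMIs of Mki67 and Top2a. A sum of 0 was found in 9825 gated cells (83.2%), and a sum of at least 20 in 304 members. Epcam, which was used only as a lower limit, had medians of 39, 61 and 41 UMIs in members and 23, 26 and 20 UMIs in the other gated cells. These are counts per cell without regard to depth. Members held 2.01, 2.57 and 2.64 times the median UMIs of the others, so the medians do not show a higher level of Epcam.

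The promoters of these genes are shown because the cycle genes described below differ in the short elements they carry there. The windows run from 250 bases before to 50 bases after the start of each gene in RefSeq on GRCm38.p6, 5′ to 3′ on the gene's own strand. Capitals mark 3 kinds of letters on either strand: the cell cycle genes homology region (CHR, TTTGAA or its reverse complement TTCAAA), through which MuvB binds, the CCAAT box (CCAAT or ATTGG), through which NF-Y binds, and E2F letters (TTTGGCGC, TTTCGCGC or TTCCCGCC, or their reverse complements), which may overlap each other. Beside the 4 genes used in the choice stand Plk1, a mitotic kinase, and 3 S phase genes, Mcm5, a subunit of the replicative helicase, Rrm2, a subunit of ribonucleotide reductase, and Tyms, thymidylate synthase.
Mki67, chr7:135716330-135716629, minus strand: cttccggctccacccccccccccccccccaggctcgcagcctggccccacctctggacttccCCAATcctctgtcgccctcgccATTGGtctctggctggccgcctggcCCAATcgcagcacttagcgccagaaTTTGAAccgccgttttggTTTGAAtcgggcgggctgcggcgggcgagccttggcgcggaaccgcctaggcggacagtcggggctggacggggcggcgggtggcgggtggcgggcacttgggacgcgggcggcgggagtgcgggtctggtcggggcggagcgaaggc
Top2a, chr11:99024140-99024439, minus strand: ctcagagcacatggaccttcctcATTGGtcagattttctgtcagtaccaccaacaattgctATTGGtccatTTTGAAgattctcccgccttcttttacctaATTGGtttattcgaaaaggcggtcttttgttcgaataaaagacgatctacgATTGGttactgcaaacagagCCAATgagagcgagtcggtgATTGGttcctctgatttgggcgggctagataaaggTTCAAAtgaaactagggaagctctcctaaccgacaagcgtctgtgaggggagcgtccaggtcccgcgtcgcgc
Birc5, chr11:117848987-117849286, plus strand: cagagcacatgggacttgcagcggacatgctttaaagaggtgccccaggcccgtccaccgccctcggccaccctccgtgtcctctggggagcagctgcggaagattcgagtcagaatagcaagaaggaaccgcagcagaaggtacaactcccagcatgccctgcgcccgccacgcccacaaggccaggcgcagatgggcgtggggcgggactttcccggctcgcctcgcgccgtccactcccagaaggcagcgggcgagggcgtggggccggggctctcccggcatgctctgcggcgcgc
Ube2c, chr2:164769679-164769978, plus strand: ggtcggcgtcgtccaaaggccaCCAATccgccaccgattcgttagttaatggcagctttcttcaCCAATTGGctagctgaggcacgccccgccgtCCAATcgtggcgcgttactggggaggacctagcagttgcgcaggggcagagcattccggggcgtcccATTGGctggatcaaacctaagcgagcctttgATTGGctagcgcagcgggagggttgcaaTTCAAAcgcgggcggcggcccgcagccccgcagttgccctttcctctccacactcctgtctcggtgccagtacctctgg
Plk1, chr7:122159185-122159484, plus strand: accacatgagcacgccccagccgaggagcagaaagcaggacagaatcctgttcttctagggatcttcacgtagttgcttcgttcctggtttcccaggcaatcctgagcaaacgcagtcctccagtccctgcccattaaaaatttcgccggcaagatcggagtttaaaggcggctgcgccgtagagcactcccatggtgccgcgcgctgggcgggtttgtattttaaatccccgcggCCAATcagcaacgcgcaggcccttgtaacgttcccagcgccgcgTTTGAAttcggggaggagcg
Mcm5, chr8:75109259-75109558, plus strand: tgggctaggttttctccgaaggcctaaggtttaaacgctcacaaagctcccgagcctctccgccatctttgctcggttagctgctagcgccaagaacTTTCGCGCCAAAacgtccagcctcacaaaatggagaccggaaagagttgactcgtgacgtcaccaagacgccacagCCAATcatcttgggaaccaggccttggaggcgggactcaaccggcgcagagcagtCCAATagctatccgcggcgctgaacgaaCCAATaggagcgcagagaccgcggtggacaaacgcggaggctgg
Rrm2, chr12:24708004-24708303, plus strand: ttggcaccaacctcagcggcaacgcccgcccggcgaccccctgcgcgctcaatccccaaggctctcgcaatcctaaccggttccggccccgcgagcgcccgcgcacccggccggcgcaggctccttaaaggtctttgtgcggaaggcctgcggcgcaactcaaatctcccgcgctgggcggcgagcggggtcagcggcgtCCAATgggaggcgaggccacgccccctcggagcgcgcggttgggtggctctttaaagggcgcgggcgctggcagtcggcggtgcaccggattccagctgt
Tyms, chr5:30073576-30073875, minus strand: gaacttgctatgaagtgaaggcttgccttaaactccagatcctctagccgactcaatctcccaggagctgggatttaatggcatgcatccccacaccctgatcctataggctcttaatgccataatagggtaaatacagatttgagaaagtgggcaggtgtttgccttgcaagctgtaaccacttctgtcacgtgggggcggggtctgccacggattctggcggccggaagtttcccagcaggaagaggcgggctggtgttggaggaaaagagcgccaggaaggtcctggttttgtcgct
CHR and CCAAT letters stood together in 3 of the 4 windows of the genes used in the choice, and the window of Birc5 held no match of these letters. The Plk1 window held CHR letters as well, while the windows of Mcm5, Rrm2 and Tyms held none. Mcm5 had 2 overlapping E2F matches and Rrm2 and Tyms had 0, and the window of Tyms held none of the letters searched. These matches are descriptions of sequence and not of binding.

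Over whole gene lists the elements were unevenly spread. CHR letters lay in 22 of 24 windows (91.7%) of the spindle and cytokinesis genes, of which 21 of 23 matched a RefSeq window by symbol, in 8 of 15 windows (53.3%) of kinetochore and checkpoint genes and in 4 of 27 windows (14.8%) of DNA replication genes, against 5875 of all 32841 windows (17.9%). E2F letters lay in 13 of the 27 replication windows (48.1%), in 1 of 11 nucleotide synthesis windows (9.09%), in 2 of the 24 spindle windows (8.33%) and in 972 of all windows (2.96%). CCAAT letters lay in 66.7% of spindle and 63.0% of replication windows, against 37.4% of all windows. The luminal keratin and junction genes had CHR letters in 0 of 9 windows.

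Cycling cells made up 4.44% of gated epithelial cells in control (3.82 to 5.13%), 2.78% in platform 15 min (2.34 to 3.28%) and 4.72% in platform 60 min (3.97 to 5.56%). The share in platform 15 min was 1.66 percentage points below control, with an interval of the difference from -2.47 to -0.882 points, and that in platform 60 min was 0.277 points above control (-0.715 to 1.31). The counting intervals of control and platform 15 min did not overlap, and those of control and platform 60 min did. Between libraries that each stand for a condition, the spread between samples is not known. Of all tumor cells within the limits on genes and mitochondrial UMIs, members were 2.54%, 1.86% and 1.86%, while the gated cells were 57.3%, 66.8% and 39.4% of them. The platform 60 min library thus stood near control by the epithelial denominator and below it by that of all cells. A fixed UMI limit selects more cells in deeper libraries, so cells were also thinned to 5000 UMIs before the rule was applied, which left out 734, 510 and 388 shallower gated cells. The shares were then 2.38%, 1.71% and 2.94%, and the difference between platform 15 min and control was -0.676 points (-1.34 to -0.0531). Platform 15 min kept the lowest share, at a smaller distance from control. Applied to leukocytes of the same libraries (Ptprc at least 1 UMI, Epcam 0), the 4-gene rule took 77, 55 and 106 cells, which were 6.85%, 5.72% and 6.21% of them. After thinning the leukocyte shares were 5.03% (3.66 to 6.71%), 6.68% (5.02 to 8.70%) and 3.71% (2.75 to 4.89%), so that platform 15 min was then highest, and the intervals of both platform libraries did not overlap.

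**Figure D1:**
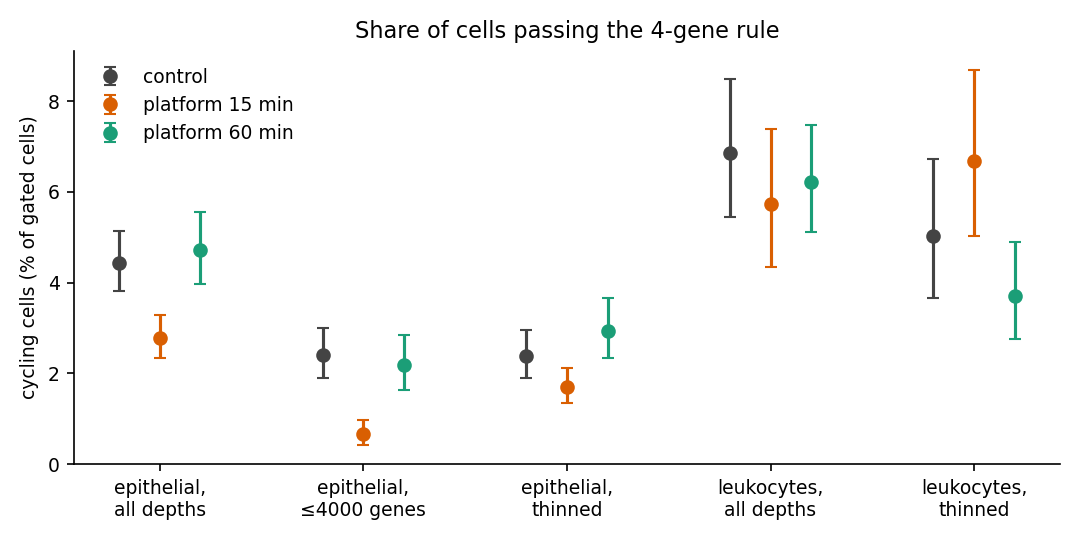
Share of cycling cells, as a percent of gated cells (vertical axis), in the control, platform 15 min and platform 60 min libraries, for epithelial cells at all depths, with at most 4000 genes and after thinning to 5000 UMIs, and for leukocytes at all depths and thinned. Points are shares and bars exact binomial 95% intervals. Platform 15 min is lowest in each epithelial group (2.78%, 0.665% and 1.71%), while among thinned leukocytes it is highest (6.68%) and platform 60 min lowest (3.71%).

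Cycling cells were deep. Members held a median of 21388.5, 30468.5 and 27317 UMIs, against 10621.5, 11840 and 10365 in the other gated cells, a ratio of 2.01, 2.57 and 2.64. They held a median of 4280, 5337.5 and 4668.5 genes, against 2704, 3104 and 2628. The mitochondrial share was close, at 9.08%, 7.61% and 8.86% in members and 8.76%, 7.53% and 9.56% in the others. Cycling leukocytes were also deeper than other leukocytes, by 1.78, 1.82 and 1.95 times in median UMIs. The ratio was larger in the epithelial cells in each library.

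Depth placed most members above the limit at which the study discarded tumor cells, 4000 genes. Above it lay 298 of the 450 members (66.2%), or 57.4%, 81.9% and 61.8% by library, against 19.5%, 22.5% and 14.9% of the other gated cells. With that limit 75, 25 and 52 members were left, and the share was 2.40%, 0.665% and 2.18%. The limit removed the larger part of the cycling cells in every library, and the largest part in platform 15 min. Over all 3 libraries the cycling share was 1.18% of gated cells with 200 to 1000 genes, 0.759% with 1001 to 2000, 1.18% with 2001 to 3000, 2.89% with 3001 to 4000, 5.49% with 4001 to 5000, 17.6% with 5001 to 6000 and 38.2% with at least 6001 genes. Between 34.2% and 47.7% of the gated cells in the last class were cycling, depending on the library. Because a deeper cell passes a UMI limit more easily, depth and the share are not independent, and their parts were not separated beyond the thinning above.

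**Figure D2:**
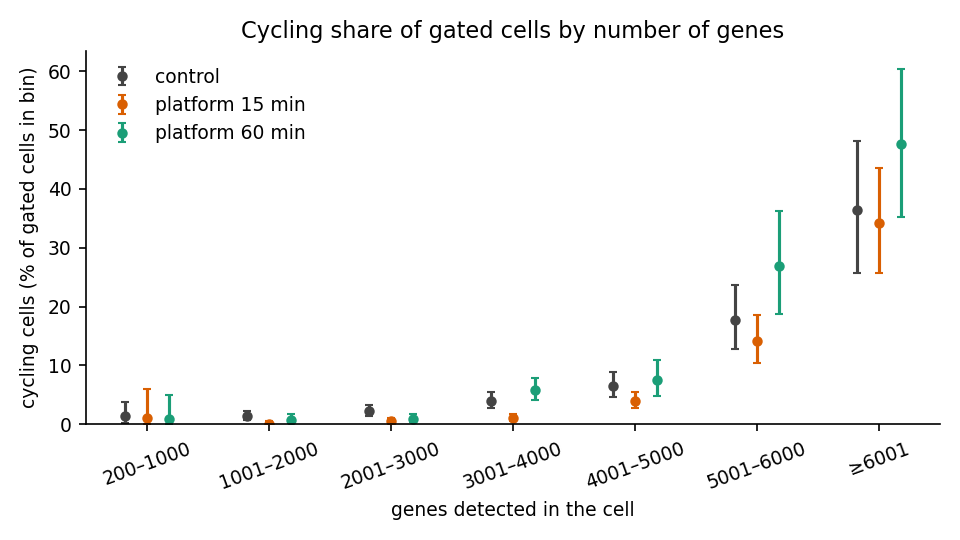
Cycling share of gated epithelial cells (vertical axis, percent) by the number of genes detected in the cell (horizontal axis), by library. Points are shares and bars exact binomial 95% intervals. The share stays below 6% up to 4000 genes in each library and is between 34.2% and 47.7% in cells with at least 6001 genes.

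Genes were then compared between members and the other 11352 gated cells within each library, as CPM, the UMIs of a gene summed over the cells and scaled to a total of 1000000. Of 10675 genes with at least 100 UMIs in both together in every library, 533 (4.99%) were at least 2-fold higher in members in all 3 libraries and 284 (2.66%) at least 2-fold lower. This is the contrast on which the cells were selected, so the counts carry no test and describe what travelled with the 4 genes. Of the same genes 4045 (37.9%) were above the other cells in all 3 libraries at any ratio and 3836 (35.9%) below, the background for the counts of genes above or below given with the lists. The median ratio over all these genes was 0.01, -0.01 and 0.03 on the log2 scale. Several cycle genes reached 100 UMIs only through the members, so that genes of a list that passed this minimum had to be higher, and the number that did not pass is given with each list.

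Genes of the mitotic apparatus stood furthest apart. Of 23 spindle and cytokinesis genes, 4 did not pass the minimum and the other 19 were at least 2-fold higher in all 3 libraries, with a median log2 ratio of 5.60, 5.82 and 5.41. Hmmr, a spindle assembly factor, was at 145, 151 and 104 CPM in members and 0.704, 0.406 and 0.864 CPM in the other cells. Prc1, which bundles the central spindle, was at 145, 171 and 94.8 CPM against 4.20, 2.30 and 2.65 CPM. Tpx2, the activator of Aurora A, was at 114, 131 and 105 CPM against 1.13, 1.10 and 1.04 CPM. The smallest ratio of the list belonged to Kif18a, a kinesin that sets chromosome alignment, at 2.91, 2.99 and 2.67 on the log2 scale.

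Kinetochore and checkpoint genes behaved alike in number, with 14 of 17 past the minimum, all 14 at least 2-fold higher and medians of 5.29, 5.86 and 5.21. Cenpa, the centromeric histone, was at 182, 175 and 161 CPM in members against 6.31, 4.86 and 6.45 CPM. Cenpf, a kinetochore protein made in G2, was at 148, 251 and 167 CPM against 3.17, 2.66 and 2.88 CPM. Aurkb, the kinase of the chromosomal passenger complex, was at 49.9, 71.9 and 58.4 CPM against 0.313, 0.361 and 0.547 CPM. Its partners Cdca8 (borealin) and Incenp had log2 ratios of 5.11, 4.88 and 4.72, and of 4.09, 3.90 and 3.79, so that all subunits of the complex to which Birc5 belongs were higher.

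Of 8 genes of mitotic exit 7 passed and 6 were at least 2-fold higher in all libraries. Cdc20, the mitotic activator of the anaphase-promoting complex, was at 200, 212 and 181 CPM against 3.52, 3.15 and 3.17 CPM. Plk1, whose window is printed above, was at 45.5, 65.3 and 41.9 CPM against 0.391, 0.361 and 0.346 CPM. Cdc27, a core subunit of the same complex, did not reach 2-fold in control and platform 60 min, with 0.68, 1.16 and 0.87 on the log2 scale. All 11 condensin and cohesin genes passed and 10 were at least 2-fold higher. Condensin subunits such as Ncapg, at 6.34, 7.60 and 6.62, stood far above the cohesin subunits Smc1a (1.04, 1.01 and 1.00) and Rad21 (1.46, 1.22 and 1.21), and Smc1a stayed just under the fold in platform 60 min.

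Replication genes were higher by a smaller ratio. Of 31 genes 26 passed and 25 were at least 2-fold higher in all 3 libraries, with medians of 2.93, 2.77 and 2.69. Mcm5 was at 77.4, 71.4 and 75.8 CPM in members against 5.41, 6.13 and 4.90 CPM. Pcna, the sliding clamp of the polymerases, was at 70.5, 66.7 and 56.4 CPM against 20.2, 13.9 and 14.0 CPM. Lig1, which joins Okazaki fragments, was at 99.6, 98.7 and 86.2 CPM against 11.5, 13.5 and 11.1 CPM. These ratios were smaller than those of the spindle genes, with more UMIs outside the members. The exception to the fold was Gins4, a subunit of the helicase complex, at 1.19, 1.07 and 0.60.

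All 12 genes of nucleotide synthesis passed and 9 were at least 2-fold higher in every library, with medians of 2.33, 2.15 and 2.10. Rrm2, the S phase subunit of ribonucleotide reductase, was at 139, 194 and 154 CPM against 3.95, 3.91 and 3.34 CPM. Tyms, thymidylate synthase, was at 178, 184 and 160 CPM against 16.3, 18.8 and 17.8 CPM. Tk1, thymidine kinase, was at 132, 212 and 169 CPM against 8.48, 13.8 and 9.05 CPM. The genes that missed the fold were those of purine synthesis, Paics (0.54, 0.49 and 0.50), Gart (0.86, 0.91 and 0.93) and Impdh2 (0.72, 1.06 and 1.13), and the thymidine and deoxynucleotide genes passed it.

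The 14 chromatin and tubulin genes all passed and were all at least 2-fold higher, with medians of 2.29, 2.25 and 2.21. H2afz, a histone variant with polyadenylated RNA, was at 2264, 2181 and 2036 CPM in members against 409, 375 and 376 CPM. Hmgb2, a chromatin protein of dividing cells, was at 806, 874 and 718 CPM against 70.3, 53.5 and 62.1 CPM. Stmn1 (stathmin), which destabilises microtubules, was at 548, 599 and 497 CPM against 68.2, 76.3 and 67.5 CPM. Of 10 homologous recombination genes 6 passed, all 6 higher, among them Brca1 at 19.5, 23.0 and 23.5 CPM against 0.958, 0.888 and 1.07 CPM.

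Cyclins and their kinases differed by phase. Of 18 genes 13 passed and 10 were at least 2-fold higher in every library. The kinase of mitosis, Cdk1, was at 217, 240 and 184 CPM against 2.83, 3.97 and 3.28 CPM, and its cyclin Ccnb1 at 105, 129 and 93.0 CPM against 1.17, 0.798 and 1.35 CPM. Ccna2, the cyclin of S phase and G2, was at 80.7, 107 and 82.6 CPM against 0.919, 0.723 and 0.922 CPM. Ccne1, the cyclin of the G1 to S transition, was at 21.6, 35.1 and 24.4 CPM against 1.92, 1.23 and 1.01 CPM. The G1 genes were closer to the other cells, with Ccnd1 (cyclin D1) at 267, 364 and 211 CPM against 126, 155 and 89.7 CPM. Cdk4, its kinase, had log2 ratios of 0.89, 0.78 and 0.79, and Cdk6, the related kinase, 0.41, -0.13 and 0.73.

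Of 12 transcription factors of the cycle 7 passed and 3 were at least 2-fold higher, E2f1 (3.18, 3.20 and 2.91), its partner Tfdp1 (1.97, 2.03 and 2.28) and the MuvB subunit Lin54 (1.34, 1.44 and 1.73). Foxm1, E2f8 and Mybl2 did not pass the minimum and had 78 to 99, 35 to 70 and 62 to 66 UMIs in the members of a library. Myc, an activator of growth genes, was not set apart, at 25.2, 17.1 and 49.3 CPM against 35.4, 20.8 and 39.5 CPM. Of 10 CDK inhibitors and pocket proteins 9 passed. Cdkn2d (p19) at 1.73, 2.90 and 2.12 and Rbl1 (p107), an E2F target, at 2.67, 2.23 and 2.72 were higher, and Rb1, the retinoblastoma protein, was lower at 20.4, 20.5 and 27.2 CPM against 51.2, 64.1 and 66.1 CPM. Cdkn1a (p21), an inhibitor induced by p53, was at 98.8, 48.7 and 99.4 CPM against 171, 117 and 130 CPM, below the other cells in all 3 libraries and past 2-fold in platform 15 min.

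**Figure D3:**
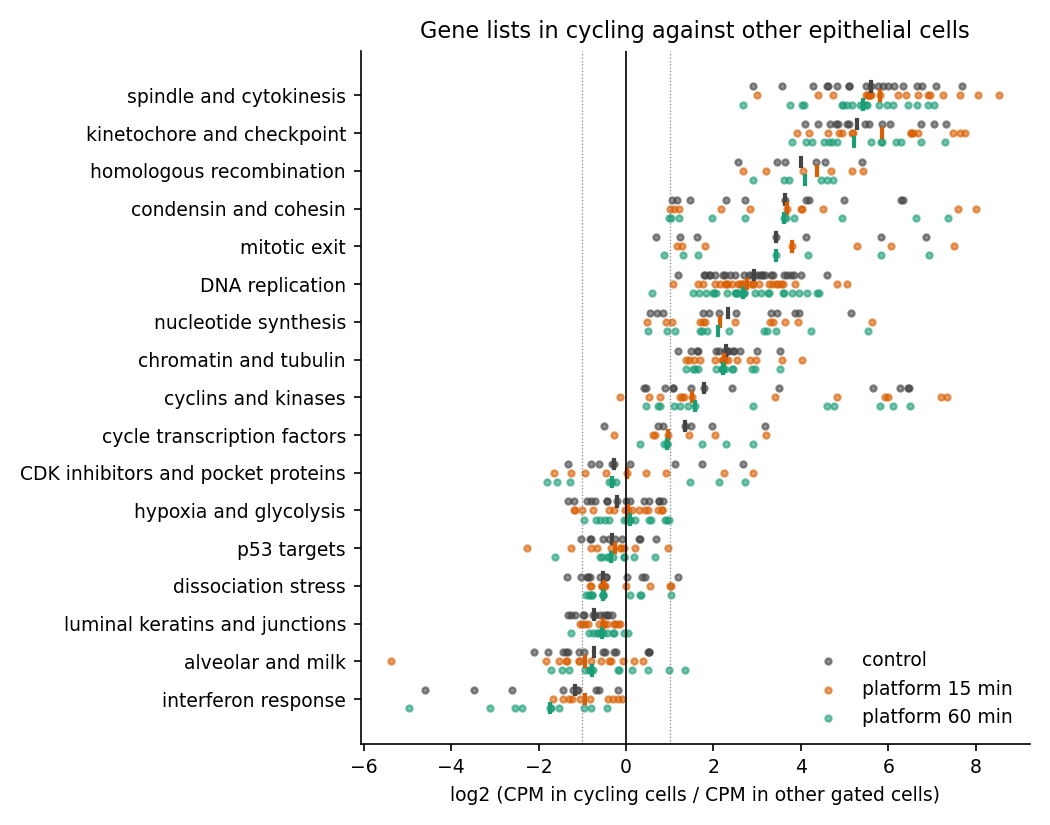
Log2 ratio of CPM in cycling cells over other gated epithelial cells (horizontal axis) for the genes of 17 lists that passed the UMI minimum, by library. Each point is a gene, vertical ticks are list medians and dotted lines mark 2-fold, and where a gene had 0 UMIs in a group 3 UMIs were used, so that such points are bounds. Spindle genes have medians of 5.41 to 5.82, replication genes of 2.69 to 2.93 and interferon response genes of -1.73 to -0.94.

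By the smallest of the 3 ratios, the 15 genes furthest above the other cells were Depdc1a, Pimreg, Hmmr, Plk1, Knl1, Aurkb, Tpx2, Ccna2, Nusap1, Mki67, Ncapg, Melk, Top2a, Esco2 and Bub1, all but Depdc1a, Pimreg and Melk on the lists above. Depdc1a, a gene of mitotic progression, had 132, 144 and 116 UMIs in members and 5, 4 and 2 UMIs in the far more numerous other cells, a log2 ratio of 8.13, 9.07 and 8.83. Pimreg, a mitotic regulator, followed at 7.49, 8.40 and 7.11. In cycling leukocytes, against other leukocytes, Depdc1a stood at 6.22, 7.05 and 8.52 and Pimreg at 6.46, 7.05 and 7.44. Cycling cells of either kind were picked by the same 4 genes, so high ratios of such genes had to follow and are a description. The UMI minimum was not applied to these leukocyte ratios.

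At the other end, the 15 genes with the lowest ratios were Wfdc12, Gm4951, Npy, Ntn4, Ly6d, Gm13889, Gdpd2, Fst, Hp, Zbtb16, Mill2, Rgs5, Krt16, Dppa1 and Adamtsl2. Npy, a neuropeptide, was at 14.8, 6.08 and 10.4 CPM in members and 146, 151 and 165 CPM in the other gated cells. Ly6d, a surface protein of some epithelial progenitors, was at 21.4, 17.3 and 7.24 CPM against 185, 227 and 166 CPM. Wfdc12, a protease inhibitor, had 2, 1 and 9 UMIs in members against 14.3, 23.8 and 61.0 CPM in the others. Of the 15 genes only Npy and Ly6d had more than 30 UMIs in the members of at least 2 libraries, and the rest had at most 39 UMIs in the members of a library, most of them under 10.

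Features of mature epithelium were lower in members by a modest ratio. All 12 luminal keratin and junction genes passed, none reached 2-fold in all libraries and 11 were below the other cells in all 3 (35.9% of all genes were), with medians of -0.73, -0.52 and -0.55. Krt8, a keratin of luminal cells, was at 2308, 1127 and 1409 CPM against 3908, 1603 and 2042 CPM. Krt18, its partner, was at 2159, 1174 and 1368 CPM against 4228, 2247 and 2467 CPM. Cldn4, a tight junction claudin, was at 162, 48.7 and 81.7 CPM against 390, 89.0 and 194 CPM. The exception was Cdh1 (E-cadherin), at -0.44, -0.26 and 0.05.

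Milk genes were mixed in level and mostly lower. Of 16 alveolar and milk genes 14 passed, 10 were below the other cells in all 3 libraries (35.9% of all genes were) and 2 by at least 2-fold, Cd14 at 176, 164 and 175 CPM against 606, 473 and 576 CPM and Btn1a1, a protein of the milk fat globule, at 11.2, 17.3 and 19.0 CPM against 48.0, 61.3 and 46.6 CPM. Csn3 (kappa-casein) was at 11197, 11512 and 11390 CPM in members and 13163, 14508 and 12715 CPM in the others. Wfdc18, a secreted protein of mammary epithelium, was at 4481, 6246 and 6079 CPM against 11284, 13053 and 10782 CPM. Csn2 (beta-casein) was at 33.1, 1.80 and 102 CPM in members, against 90.3 and 74.7 CPM in the others of control and platform 15 min. In control 79.9% of its UMIs in members lay in 1 cell. Aqp5, a water channel, went the other way, at 1627, 1803 and 1243 CPM against 1152, 1381 and 871 CPM.

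Interferon response genes were lower throughout. Of 11 genes 10 passed, all 10 were below the other cells in all 3 libraries (35.9% of all genes were) and 5 by at least 2-fold (Irf7, Oasl2, Ifit1, Rsad2 and Ifit3), with medians of -1.16, -0.94 and -1.73. Irf7, the transcription factor that sustains the response, was at 50.1, 61.5 and 21.5 CPM in members against 136, 152 and 125 CPM. Isg15, a ubiquitin-like protein, was at 83.4, 126 and 69.3 CPM against 181, 225 and 199 CPM. Ifit1, which binds foreign RNA, was at 4.16, 21.2 and 5.66 CPM against 25.3, 49.7 and 29.4 CPM. For these 3 genes platform 15 min had the highest level in members and the smallest log2 distance from the other cells.

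Depth moved with these differences, and 2 comparisons within a limited range of depth were added after the data were seen. Inside these ranges the depth of members and others was not matched. Among the 224 members and 3547 other cells with 14898.5 to 40661.5 UMIs, the members' middle range, all 19 spindle genes stayed at least 2-fold higher, all 12 luminal genes and all 10 interferon genes were below the other cells in all libraries, and 4 interferon genes were below by at least 2-fold. Among the 152 members and 9118 others with at most 4000 genes, all 19 spindle genes were again at least 2-fold higher and 10 of 12 luminal genes were below. In those shallower cells 5 of 10 interferon genes were below in all 3 libraries, and 1 by at least 2-fold, with medians of -1.61, -0.32 and -1.55. Platform 15 min held 25 of those members. Of all 10675 genes, 3277 were below in all libraries in the middle range and 2597 in the shallower cells. At least 2-fold lower were 255 and 236 of them, and at least 2-fold higher 492 and 498.

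Other programs were mixed. Of 12 genes of the early stress response to dissociation, 8 were below the other cells and 4 above in all libraries, against 35.9% and 37.9% of all genes. Above were the chaperones Hspd1, Hspa8 and Hsp90aa1 and, by at most 0.10, the nuclear receptor Nr4a1, with Hspd1 at 435, 411 and 536 CPM against 192, 202 and 264 CPM, at least 2-fold in every library. No gene of the list was at least 2-fold higher in all libraries in the members' middle range of UMIs or among cells with at most 4000 genes. At least 2-fold lower in all libraries were 1 of the 12 in the middle range and 5 among cells with at most 4000 genes. Of all 10675 genes 255 and 236 were. Over all depths the immediate early factors were below, with Fos at 1585, 2166 and 2308 CPM against 2168, 3082 and 3314 CPM and Jun at 1288, 2077 and 1993 CPM against 1757, 2878 and 2887 CPM. In the middle range Fos was level in control, at 0.001 on the log2 scale. Of 15 hypoxia and glycolysis genes none reached 2-fold in all libraries. Gapdh, a glycolytic enzyme, was at 1308, 1322 and 1304 CPM against 774, 749 and 683 CPM, while Aldoa, another, was at 707, 756 and 493 CPM against 1304, 1517 and 962 CPM. Of 10 p53 targets 7 were below in all libraries, against 35.9% of all genes, and Trp53inp1 at least 2-fold, at 12.1, 4.96 and 7.02 CPM against 24.6, 24.0 and 21.5 CPM. Of 12 genes of the keratinizing list 6 passed, 1 was at least 2-fold higher, 1 (Sbsn) at least 2-fold lower and 2 below in all libraries, with medians of -0.18, -0.29 and -0.52. The higher gene was Klk10, a secreted protease of keratinizing epithelium, which was 2-fold higher in every library, at 209, 667 and 452 CPM against 71.2, 211 and 106 CPM, and which did not reach the fold in all libraries among cells with at most 4000 genes. The mesenchymal list had 4 of 8 genes past the minimum with no common direction.

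Keratins, which the choice did not use, matched the epithelial label and were luminal rather than basal in most members. After thinning to 5000 UMIs, 85.4%, 83.9% and 87.8% of members held at least 5 UMIs of Krt8 and Krt18 together, against 95.6%, 95.7% and 87.9% of the other gated cells. Basal-marked cells, with at least 2 UMIs of Krt14 and 1 of Krt5, numbered 1, 0 and 1 among members. These were 0.610% (0.0154 to 3.35%), 0% (0 to 2.66%) and 0.763% (0.0193 to 4.18%) of thinned members, against 0.326%, 0.441% and 3.09% of the others. In every library the members' interval included the share of the others. The 10 basal and myoepithelial genes summed to 98.1, 56.3 and 154 CPM in members and 142, 144 and 549 CPM in the other gated cells. Krt14 had 295, 132 and 556 UMIs in members, and Krt5 in control was higher in members, at 7.69 against 3.30 CPM. Myh11, a contractile protein of myoepithelium, was at 0 UMIs in members of every library. It was also near 0 in the others, at 0.0782, 0.0903 and 1.04 CPM.

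Markers of most other cell types were low. The 10 macrophage genes summed to 76.3, 60.1 and 84.0 CPM in members, to 143, 117 and 233 CPM in the other gated cells and to between 42323 and 47096 CPM in leukocytes, and all 8 that passed the minimum were below the other gated cells in every library. The 7 endothelial genes summed to 4.37, 12.8 and 8.60 CPM in members and 6.45, 6.59 and 8.73 CPM in the other gated cells. The 8 T and NK genes summed to 3.95, 8.11 and 0.453 CPM against 5.51, 3.37 and 6.42 CPM, so that both sums were higher in members in platform 15 min. The 6 granulocyte genes were above the other gated cells, at 290, 429 and 440 CPM against 174, 298 and 303 CPM, of which G0s2, a gene also used outside granulocytes, gave 222, 392 and 368 CPM, and the granulocyte receptor Csf3r was at 0 UMIs in all members. The 7 fibroblast genes were uneven, with sums of 14.8, 620 and 318 CPM in members and 160, 204 and 857 CPM in the others, and with at least 5 UMIs of the list after thinning in 0, 2 and 2 members. The part of these markers in the results was not tested.

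Within the members, S phase and mitotic genes were counted per cell after thinning to 5000 UMIs, without the 4 genes of the choice, which left out 18 members below that depth. The median member held 10, 10 and 9 UMIs of S genes and 24, 26 and 21 UMIs of G2 and M genes, against 2, 1 and 1 and against 3, 3 and 3 in the other gated cells. A cell was called S-leading where its S count, divided by the members' mean, exceeded its G2 and M count divided likewise. By this division 76 of 164, 63 of 137 and 69 of 131 members were S-leading, or 46.3% (38.5 to 54.3%), 46.0% (37.4 to 54.7%) and 52.7% (43.8 to 61.5%). The intervals overlapped widely. The division is a cut through a range, and 66 of the 432 cells lay within 1.25-fold of equality. S-leading cells held a median of 21809, 32124 and 29768 UMIs and the others 25303.5, 29543.5 and 25803, so that neither kind was deeper throughout.

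**Figure D4:**
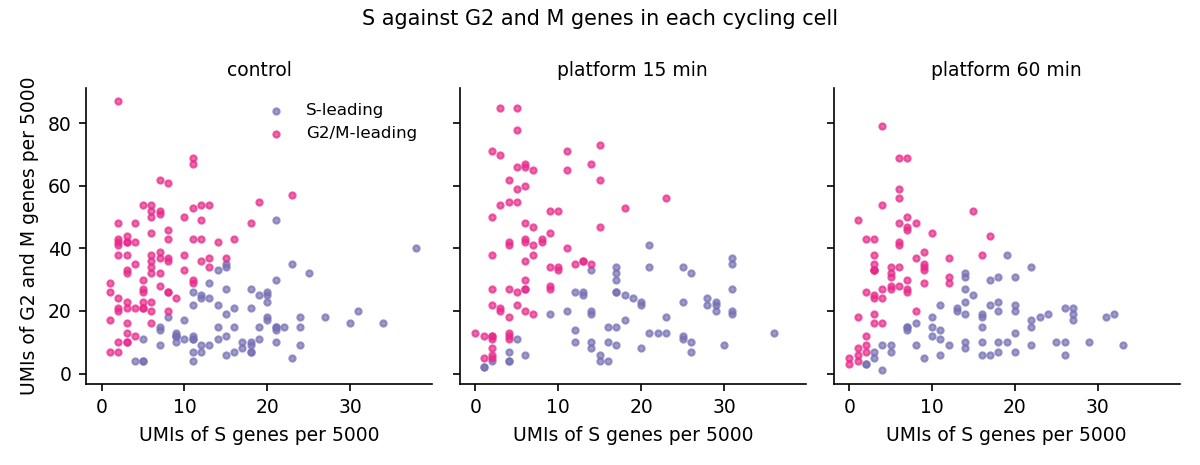
UMIs of S genes (horizontal axis) against UMIs of G2 and M genes (vertical axis) in each cycling cell after thinning to 5000 UMIs, in 3 panels for the libraries, coloured by which score leads. Cells spread along both axes in all 3 libraries with no gap between the S-leading (76, 63 and 69) and G2/M-leading cells (88, 74 and 62).

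Of 6733 genes outside the scores with enough UMIs, 16 (0.238%) were at least 2-fold higher in S-leading members in all 3 libraries and 28 (0.416%) in G2/M-leading members, a description of a contrast that the scores define. The S side was led by Ccne1, at 39.0, 71.1 and 41.1 CPM in S-leading and 6.95, 2.58 and 4.47 CPM in G2/M-leading cells. E2f1 followed at 41.7, 38.4 and 31.5 CPM against 6.56, 6.45 and 5.95 CPM, and Mcm3, Tcf19, Donson, Slfn9, Cdt1, Mcm10, Zfp367 and Pola2 completed the 10 highest. The G2 and M side was led by Cdkn3, a phosphatase of Cdk kinases, and by Ube2c, at 146, 169 and 139 CPM in S-leading and 1039, 801 and 829 CPM in G2/M-leading cells, followed by Plk1, Aspm, Pttg1, Arl6ip1, Pimreg, Bub1b, Kif20a and Knstrn. The 4 genes of the choice were thus not alike. Ube2c marked the G2 and M side, while Top2a was at 226, 347 and 281 CPM in S-leading and 283, 313 and 237 CPM in G2/M-leading cells, a log2 difference of -0.33, 0.15 and 0.24, and Mki67 lay between at -0.61, -0.94 and -0.64.

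Some gated cells outside the members also held many S gene UMIs. Of 9738 gated cells outside the members that had at least 5000 UMIs, 94 (0.965%) held at least 10 UMIs of S genes after thinning, the members' median, and 19 of these had 0 UMIs of the 4 genes.

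Cycling leukocytes, a different cell type picked by the same 4 genes, are set beside the members here. Of 6789 genes measured in leukocytes 200 (2.95%) were at least 2-fold higher in cycling ones in all 3 libraries. Of 23 spindle genes 7 passed the minimum there and all 7 were among them, as were 6 of 6 kinetochore genes that passed, of 17. Many passed through the cycling cells in which they are high, so these counts had to come out high and are a description. Of 22 replication genes that passed, of 31, 17 were among them, and 13 of 14 chromatin and tubulin genes. Over the 11 interferon genes, which were lower in epithelial members, the leukocyte median was -0.02.

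The study's question was what the platform does to the cells it recovers, and here it was asked within cycling cells. Platform 15 min against control had 345 of 10322 genes (3.34%) at least 2-fold higher in members and 127 (1.23%) at least 2-fold lower, among genes with at least 30 UMIs in the 2 libraries. Platform 60 min against control had 251 of 10238 (2.45%) higher and 142 (1.39%) lower. Both comparisons use the same control library. The median gene in platform 15 min was 0.14 above control on the log2 scale (0.20 in the other gated cells), and with ratios centred on it, a setting added after the data were seen, 231 genes were higher and 175 lower, a smaller excess of higher over lower genes. In platform 60 min the median was -0.01.

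Many of these ratios rested on a single cell. In 110 of the 345 genes higher and 45 of the 127 lower in platform 15 min, and in 98 of 251 and 45 of 142 in platform 60 min, 1 cell held over 20% of the UMIs of the library with the higher level. The most extreme ratios were of this kind. The 10 highest in platform 15 min (Dcpp3, Col5a2, Cilp, Thbs4, Col1a2, Dcpp2, Fstl1, Col6a2, Mfap5 and Postn) and in platform 60 min (Rarres2, Dcn, Serpina3n, Fabp4, Adamts5, Prg4, Lum, Svep1, Serping1 and Col1a2) each had over 50% of their UMIs in 1 cell, and many are matrix genes of fibroblasts, whose sums are given above. Of the 10 lowest in platform 15 min (Csf3, Fosl1, Ccl20, Krt5, Csn2, Tph1, Plaur, Prss22, Scgb1b27 and Saa3) only Fosl1 was below 20%, and of those in platform 60 min (Saa3, Fxyd2, Orm2, Csf3, BC100530, Pip, Cntfr, Orm1, Tph1 and Pcp4) none was. Csf3, the granulocyte growth factor, had 502, 0 and 15 UMIs in members and was detected in 11.9% of control members, with 56.0% of its UMIs in 1 of them. Col1a2, a fibrillar collagen, had 10 UMIs in control, 897 in platform 15 min, 64.9% of them in 1 cell, and 243 in platform 60 min, 83.5% in 1 cell. The next genes are therefore those in which no cell exceeded 20%.

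Among such genes, Fosl1, Hbegf, Hmox1, Noct and Tiparp were lower in platform 15 min. They were picked from the extremes and form no list, and 0 of the 12 genes of the early stress list were 2-fold lower there. Of all genes 1.23% were, so a count of 0 does not set that list apart. Fosl1, a Fos family transcription factor, was at 38.5, 0.676 and 11.8 CPM in members and was detected in 27.8%, 2.17% and 14.0% of them. The ratio of platform 15 min to control was 0.0176 (0.00359 to 0.0521), and in the other gated cells 0.0301. Hbegf, a growth factor that activates the EGF receptor, was at 205, 37.4 and 116 CPM, a ratio of 0.182 (0.154 to 0.215) in platform 15 min, and 0.147 in the other cells. Hmox1 (heme oxygenase), at 46.2, 11.9 and 24.7 CPM, Noct, at 48.0, 11.0 and 33.5 CPM, and Tiparp, at 40.1, 10.6 and 23.5 CPM, followed the same order of libraries, with platform 60 min between platform 15 min and control. Just past the limit of 20% lay Plaur, the urokinase receptor, with 151 UMIs in control, 20.5% of them in 1 cell, and 9 UMIs in platform 15 min. It had a ratio of 0.0646 (0.029 to 0.126). Of the 82 lower genes in which no cell dominated, 43 were also at least 2-fold lower in the other gated cells. Of the 235 higher genes 39 were also at least 2-fold higher there. The share of all genes past 2-fold in the other gated cells was not counted. Whether these overlaps exceed it can therefore not be read from them.

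Genes higher in platform 15 min included Klk6, a kallikrein protease, at 5.82, 27.9 and 10.6 CPM and in 1.70%, 14.5% and 5.88% of members, a ratio of 4.80 (3.16 to 7.51). Its ratio in the other gated cells was 10.1. Birc3, an inhibitor of apoptosis, had a ratio of 3.71 (2.19 to 6.54) in members and 0.872 in the others. The difference between members and others was not tested for either gene.

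Genes higher in platform 60 min included Ccl4, Ccl3 and Ddit4, picked from the extremes likewise. Ccl4, which attracts leukocytes, was at 3.12, 5.86 and 19.0 CPM and was detected in 8.52%, 18.8% and 43.4% of members, a ratio of 6.10 (3.49 to 11.4) against 4.30 in the other cells. Ccl3, of the same family, was at 1.46, 1.58 and 8.60 CPM, a ratio of 5.91 (2.61 to 15.7) against 3.81. Ddit4, an inhibitor of mTOR induced by stress, was at 29.5, 51.4 and 103 CPM, a ratio of 3.49 (2.88 to 4.24) against 2.88. The order of control, platform 15 min and platform 60 min was the same for these 3 genes. Ccl3 had 7, 7 and 38 UMIs, so that for it only platform 60 min stood apart. Espn, an actin bundling protein, was lower in platform 60 min, at 46.6, 35.4 and 12.7 CPM, a ratio of 0.272 (0.199 to 0.366) against 0.651.

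Ratios of stress and luminal genes in members lay on the same side of 1 as in the other gated cells for some genes and not for others. Jun was 1.61 times control in platform 15 min (1.56 to 1.67) and 1.55 times in platform 60 min, with 1.64 in the other cells in both. Egr1 was at 1.79 and 1.71, with 1.74 and 1.62 in the others. Krt8 was at 0.488 and 0.611, with 0.410 and 0.523, and Krt18 at 0.544 and 0.634, with 0.531 and 0.583. In platform 15 min Hspa8 was at 1.02 in members and 0.899 in the others, Fosb at 1.19 and 0.932, Gadd45b at 1.15 and 0.665, Krt19 at 1.04 and 0.888 and Krt7 at 1.10 and 0.986. Interferon genes went apart between the platform libraries. Ifit1 had 20, 94 and 25 UMIs, a ratio of 5.09 (3.12 to 8.71) in platform 15 min and 1.36 (0.726 to 2.58) in platform 60 min, against 1.96 and 1.16 in the other cells. In platform 15 min over 20% of the Ifit1 UMIs of members lay in 1 cell, which its interval does not cover. Irf7 was at 1.23 and at 0.429 (0.335 to 0.546), against 1.12 and 0.921. Cdkn1a was at 0.493 (0.417 to 0.580) in platform 15 min and 1.01 in platform 60 min, against 0.681 and 0.761.

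Few cycle genes passed 2-fold between conditions, and few of all genes did. The cyclin, replication, nucleotide, spindle, kinetochore, condensin, mitotic exit and chromatin lists held 8 to 31 genes with enough UMIs. None of their genes was at least 2-fold lower in either platform library, against 1.23% and 1.39% of all genes. None was at least 2-fold higher in platform 60 min, against 2.45% of all genes. With lists of this size, counts of 0 lie near these shares and do not set the lists apart. In platform 15 min, 1 gene each of the cyclin (17 genes), spindle (23), kinetochore (17) and mitotic exit (8) lists was at least 2-fold higher, against 3.34% of all genes. The cycle transcription factor and homologous recombination lists also had 1 gene each at least 2-fold higher there. Of the CDK inhibitors and pocket proteins, 1 gene was at least 2-fold lower in each platform library. The list medians in platform 15 min lay at 0.40 for spindle genes and 0.45 for kinetochore genes, above the 0.14 of all genes, and at 0.14 for replication genes. In the other gated cells these medians were -0.04, 0.30 and 0.21, and 0.20 over all genes. In platform 60 min the 3 list medians lay at -0.20, 0.00 and -0.15 in members and at -0.03, 0.27 and -0.01 in the other gated cells.

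**Figure D5:**
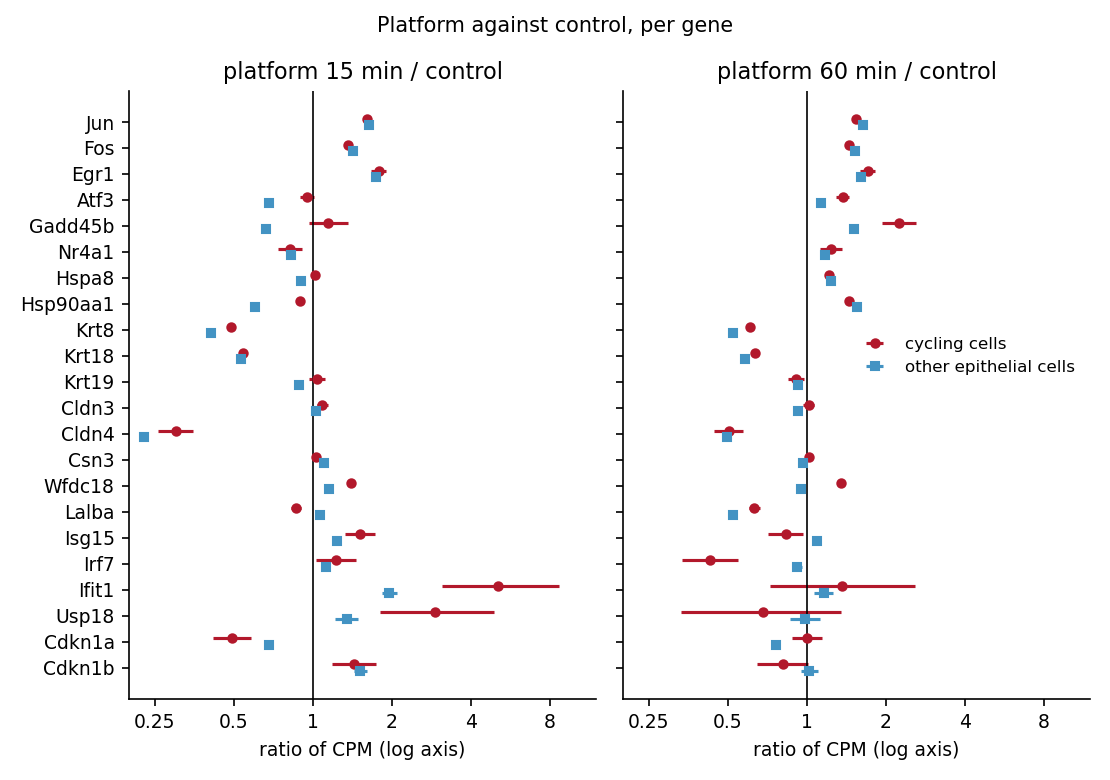
Ratio of CPM of platform 15 min (left) and platform 60 min (right) over control (horizontal log axis) for stress, keratin, milk, interferon and CDK inhibitor genes, in cycling cells (circles) and in other gated epithelial cells (squares). Bars are exact 95% counting intervals. Jun, Fos and Egr1 lie above 1 and Krt8, Krt18 and Cldn4 below 1 in both cell groups and both panels, and the bars of Ifit1 and Usp18 are the widest.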

How the data were processed

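Single-cell libraries of 3 tumor samples were used, with 1 sample per condition. Per the labels and the study's methods, the authors made libraries with 10x v3 chemistry, processed reads with Cell Ranger 3.1.0 on mm10 and joined libraries with Cell Ranger Aggr, which evens mapped reads per cell between libraries. The deposited values are UMI counts of the joined libraries for 31053 genes, and a cell's library was read from its barcode suffix. The study's upper limit of 4000 genes for tumor was not applied, since it removes most of the cells described.

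Members and gene lists were chosen with earlier results of these data known. Counts were summed per library over members and over other gated cells and scaled to CPM, and a count of 0 was set to 3 for a ratio. Intervals are exact binomial, exact conditional (ratios) or Newcombe (differences of shares) at 95%. With 1 library per condition no count model was run and no p-value is given. Named genes are the 4 rule genes and Epcam, from each list the 2 to 6 with the highest CPM in members and those opposed to the rest, the 15 highest and lowest by the smallest ratio, the 10 extremes per platform comparison, and the 10 extremes between S-leading and G2/M-leading members. Because those platform extremes mostly rested on 1 cell, genes with at most 20% of UMIs in 1 cell were named as well, a choice made after the data were seen, as were Mcm5, Pcna, Stmn1, Ccnb1, Ccna2, Ccne1, Cdk6, Lin54, Foxm1, E2f8, Mybl2, Cldn4, Cdh1, Cd14, Btn1a1, Ifit1, Egr1 and Myh11, named for their roles. Genes within a list were compared between cells and not with each other. Promoter windows and gene symbols were from RefSeq on GRCm38.p6. Python 3.11.15, numpy 2.4.6, scipy 1.17.1, pandas 2.3.3, statsmodels 0.14.6 and scanpy 1.11.5 (Scrublet) were used, and the gene comparison was tested on simulated data. The kidney libraries (C57BL/6, 12 weeks) were used only for a count of cells passing the same rule. Alternatives are given in the closing section. No paired analysis was possible because each condition holds 1 library.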

Additional observations from a re-analysis of the deposited data

Results flagged for a closer look

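The following ratios of platform over control in cycling cells went the opposite way in the other gated epithelial cells, and the difference was not tested. Krt5, a basal keratin, had a ratio of 0.0293 in platform 15 min, against 1.82 in the other cells, with 67.6% of its UMIs of the control members in 1 cell. Dcpp3 and Dcpp2 had ratios of 238 and 97.1 in platform 15 min, against 0.392 and 0.353, with 88.6% and 90.2% in 1 cell. Postn (periostin) had 65.2 in platform 15 min, against 0.575, with 54.2% in 1 cell. Saa3 and Fxyd2 had 0.0122 and 0.0122 in platform 60 min, against 1.81 and 1.49, with 53.1% and 98.9% in 1 cell. Tph1 had 0.0396, against 1.43, with 100% in 1 cell. Pcp4 had at most 0.0759, a bound computed with 3 UMIs in place of 0, against 6.71, with 97.7% in 1 cell.

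In the kidney libraries, which no comparison above uses, 3 of 308 gated cells of platform 60 min passed the same rule (0.974%, 0.201 to 2.82%). In kidney control 0 of 183 gated cells passed, which allows a share of up to 1.64% at 3 counts of the total and up to 1.996% by the exact binomial interval, and in kidney platform 15 min 0 of 61, which allows up to 4.92% and 5.87%.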

How the results depend on the processing

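Of the shares, gene counts and S-leading shares recomputed under the alternatives, 95 values stayed within the counting interval or within 1.5 times the count and 25 moved. Named genes and lists gave 774 values that stayed, 87 that moved without a change of direction and 6 that reversed. The cause was not tested unless the setting itself fixes it. A 4-gene sum of at least 3 gave 3.33% in platform 15 min. Without cells above 4000 genes the shares were 2.40%, 0.665% and 2.18%, members had 302 genes higher than the other cells, platform 60 min had 133 genes higher than control, and 58.3% of platform 15 min members were S-leading, over 24 cells. Thinning to 5000 UMIs before the rule gave 2.38%, 1.71% and 2.94%, and a difference between platform 15 min and control of -0.676 points. The mean of per-cell CPM gave 280 genes lower in platform 60 min. A UMI minimum raised 2-fold gave 167 genes higher and 77 lower in platform 15 min, and 134 and 62 in platform 60 min. A fold of 1.5 gave 1220 genes higher and 892 lower in members, 1242 and 359 in platform 15 min, and 829 and 551 in platform 60 min, because it is less strict. Of the alternatives chosen after seeing the data, the members' middle range of UMIs gave 354 genes higher in members, and leaving out genes with over 20% of UMIs in 1 cell gave 82 lower in platform 15 min and 153 higher in platform 60 min. The centred ratios given in the report stayed within 1.5 times. Reversals were Cntfr in platform 60 min without cells above 4000 genes (0.22, log2), Krt16 in members after thinning (1.41), Dcpp3 (-0.17) and Dcpp2 (-1.31) in platform 15 min and Svep1 (-0.10) in platform 60 min after thinning, and Rgs5 in members with Epcam at 1 UMI or more (0.85). No paired analysis was possible because each condition holds 1 library, and leaving out a replicate was not possible for the same reason. Depth limits statements on genes with fewer than about 30 UMIs in members.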

Other observations

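Ribosomal and mitochondrially encoded genes were near level between cycling and other epithelial cells. Over 80 cytosolic ribosomal protein genes the median log2 ratio was 0.08, 0.03 and 0.13, and over 13 mitochondrially encoded genes 0.10, 0.04 and 0.01, with 0 of either list past 2-fold in all 3 libraries. Of the 7 hormone sensing genes 4 passed the UMI minimum, and Esr1 and Pgr, the estrogen and progesterone receptors, did not, with at most 11 and 4 UMIs in the members of a library. Prlr, the prolactin receptor, was at 85.0, 115 and 84.7 CPM in members and 79.8, 122 and 72.4 CPM in the other gated cells.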
